A study of Homo sapiens with 23 samples.

Results

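The 10 genes described here encode intermediate filament proteins and nuclear lamins: DES, NES, SYNM, SYNC, KRT8, KRT18, KRT19, LMNA, LMNB1 and LMNB2. They were taken by name and by no rule on their values, though with earlier results of these data known. Each matched a single Ensembl identifier of the count table. They make up 10 of the 57477 genes used, and all 10 were among the 22245 genes with enough counts to be tested. DES lies on chromosome 2 (219418377 to 219426735, plus strand), SYNM on chromosome 15 (99098217 to 99135593, plus), SYNC on chromosome 1 (32679906 to 32703596, minus) and NES on chromosome 1 (156668763 to 156677407, minus). KRT8 (52897187 to 52949954, minus) and KRT18 (52948871 to 52952906, plus) are neighbours on chromosome 12, and KRT19 is on chromosome 17 (41523617 to 41528308, minus). LMNA is on chromosome 1 (156082573 to 156140081, plus), LMNB1 on chromosome 5 (126776623 to 126837020, plus) and LMNB2 on chromosome 19 (2427638 to 2456959, minus). Positions are those of GENCODE release 44 on GRCh38, and counts are over whole genes, so splice forms are not separated.

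Total RNA depleted of ribosomal RNA was sequenced from wild-type H1-hESC cultures, an established human embryonic stem cell line, on 8 days of a directed differentiation into cardiomyocytes. The cell types on the labels are stem cells for day 0, mesendoderm for day 1, cardiac mesoderm for day 3, cardiac progenitors for days 5 and 7, and cardiomyocytes for days 10, 14 and 28. Each day had 3 libraries except day 10, which had 2. The labels do not say that libraries of a day came from separate cultures, so p-values cover the spread between these libraries, which may be technical. Stem cells were kept in mTeSR1 medium and the cardiomyocytes in RPMI with insulin, and every later day also differs from day 0 in time in culture.

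Intermediate filaments are ropes of coiled-coil proteins whose makeup differs between cell types. Simple epithelia build them from paired type I and type II keratins, mesenchymal cells from vimentin, and muscle from desmin, which ties the Z-discs of neighbouring myofibrils to each other, to the membrane and to the nucleus. Lamins are the nuclear members of the family and line the inner nuclear membrane. B-type lamins are found in nearly all cells and stay farnesylated, whereas the A-type lamins A and C, splice forms of LMNA, accumulate as cells differentiate and are abundant in stiff tissues such as heart muscle.

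Total counts per library ranged from 4330334 on day 5 to 22089595 on day 0. The summed level of 5 pluripotency markers averaged 6450 ± 150.0 CPM (the count relative to the TMM-scaled library size) on day 0, 1233 ± 49.1 on day 7 and 2.20 ± 0.271 on day 28. That of 8 cardiomyocyte markers averaged 71.1 ± 1.69 CPM on day 0, 17814 ± 1383 on day 7 and 48366 ± 7253 on day 28. Libraries of day 5 stood apart from each other: their correlations across genes were 0.907 to 0.967, against 0.973 to 0.997 on the other days. Their levels also followed GC content, with a within-day slope of -0.598 log2 units per 10 percentage points of GC in replicate 2 and 0.504 in replicate 3. Outside day 5 the slopes lay between -0.354, in day 3 replicate 1, and 0.189. These are bulk libraries, in which fewer cells of a type and less RNA per cell cannot be told apart.

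Promoter sequences are shown for the genes with the steepest late rises, SYNM and SYNC, and for the B-type lamin genes, which both fell. Each is 300 bases of RefSeq sequence (GRCh38.p14), 250 before and 50 after a start site that coincides with that of the MANE Select transcript, printed 5′ to 3′ on the gene's strand. The windows are chr15:99104830-99105129 (plus strand) for SYNM, chr1:32702721-32703020 (minus) for SYNC, chr5:126776886-126777185 (plus) for LMNB1 and chr19:2456910-2457209 (minus) for LMNB2. Capitals mark CCAAT, matches to the GC box (GGGCGG) and the E-box core CANNTG, each searched on both strands.
SYNM: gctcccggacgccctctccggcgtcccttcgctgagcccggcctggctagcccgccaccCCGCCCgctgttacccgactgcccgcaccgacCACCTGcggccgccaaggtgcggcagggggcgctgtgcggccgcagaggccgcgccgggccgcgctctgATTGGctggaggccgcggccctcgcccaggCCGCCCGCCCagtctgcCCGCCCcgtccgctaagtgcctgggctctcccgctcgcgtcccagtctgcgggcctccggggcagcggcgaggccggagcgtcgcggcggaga
SYNC: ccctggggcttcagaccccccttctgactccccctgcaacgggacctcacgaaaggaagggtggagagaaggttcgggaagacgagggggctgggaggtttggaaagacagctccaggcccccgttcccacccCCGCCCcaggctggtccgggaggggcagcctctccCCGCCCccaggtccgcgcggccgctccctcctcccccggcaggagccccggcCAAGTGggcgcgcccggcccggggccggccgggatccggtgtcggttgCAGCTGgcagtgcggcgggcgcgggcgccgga
LMNB1: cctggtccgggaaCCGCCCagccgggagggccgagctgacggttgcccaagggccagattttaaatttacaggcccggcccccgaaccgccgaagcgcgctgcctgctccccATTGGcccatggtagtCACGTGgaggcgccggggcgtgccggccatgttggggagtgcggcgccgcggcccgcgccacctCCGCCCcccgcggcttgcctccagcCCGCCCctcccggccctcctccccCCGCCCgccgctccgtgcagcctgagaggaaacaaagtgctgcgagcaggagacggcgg
LMNB2: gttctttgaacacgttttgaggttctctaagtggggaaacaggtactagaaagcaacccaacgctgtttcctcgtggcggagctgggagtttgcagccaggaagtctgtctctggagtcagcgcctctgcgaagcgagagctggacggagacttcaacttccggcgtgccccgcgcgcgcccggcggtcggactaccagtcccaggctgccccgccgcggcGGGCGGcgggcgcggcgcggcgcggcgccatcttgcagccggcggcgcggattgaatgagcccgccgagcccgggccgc
CCAAT was found 1 time in the SYNM window, on the opposite strand at position -90 from the start site, and 1 time in the LMNB1 window, on the opposite strand at -138. It was in neither the SYNC nor the LMNB2 window, and 34.6% of all 35116 RefSeq promoter windows of this length hold it. GGGCGG occurred 4 times in SYNM, where matches at -60 and -56 overlap, 4 times in LMNB1, 2 times in SYNC and 1 time in LMNB2, against 45.0% of all windows with a match. CANNTG was found 2 times in SYNC and 1 time each in SYNM and LMNB1, where the letters read CACGTG. It is in 68.7% of all windows, and TATAAA, which 11.5% of windows hold, was in none of the 4.

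Between day 0 and day 28 the desmin-type genes, the simple epithelial keratins and LMNA rose, and the B-type lamin genes fell. All 10 genes passed the test of day 28 against day 0 (edgeR quasi-likelihood test, Benjamini-Hochberg adjusted p under 0.05), 8 higher and 2 lower, where 60.5% of all genes tested passed. For none of the 10 did the libraries of these 2 days overlap, and every one of these calls held with each library of the 2 days left out in turn. Their median log2 change was 1.79, against 0.09 over all genes tested. The route there differed between genes, as the plot of levels by day shows.

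**Figure D1:**
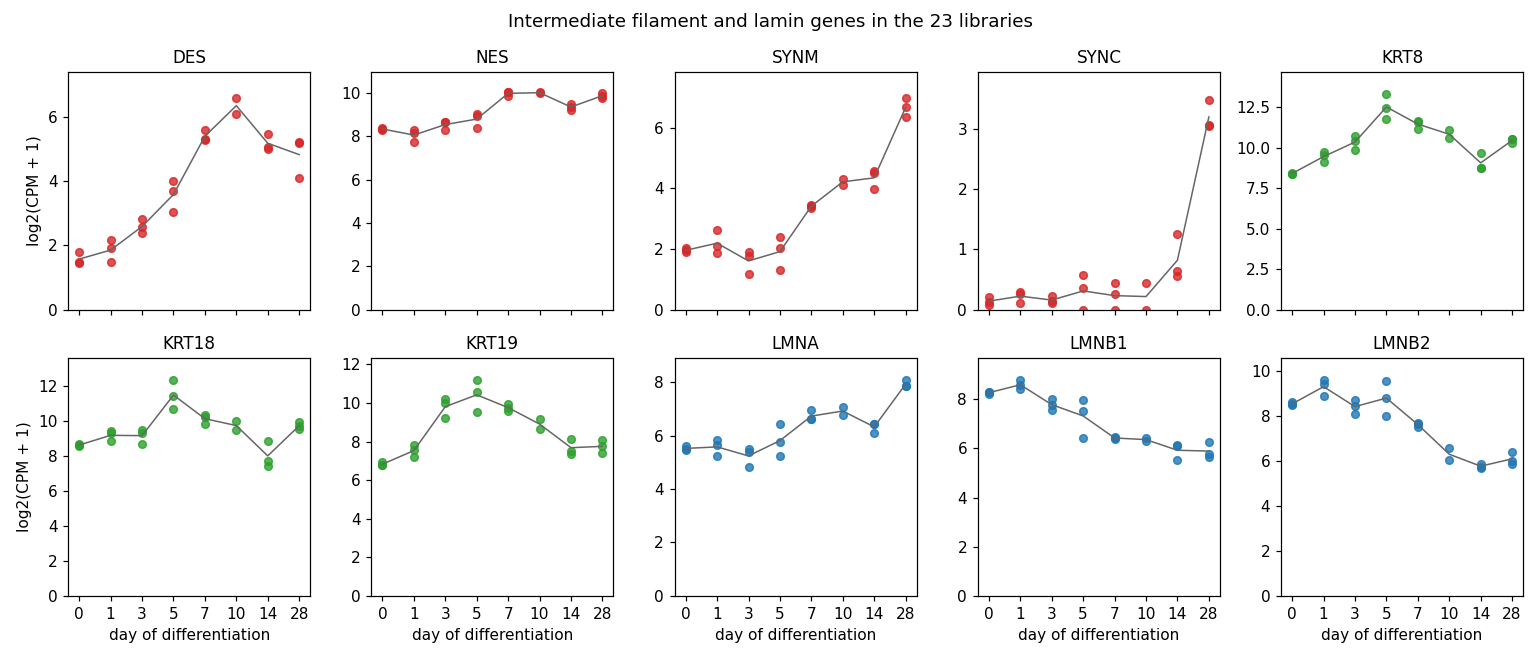
Level of each gene, as log2(CPM + 1), in each of the 23 libraries (points) by day of differentiation, with lines through the day means. Days are evenly spaced on the horizontal axis. Red marks DES, NES, SYNM and SYNC, green the keratins and blue the lamins. SYNC stays near 0 until day 14, KRT8 and KRT18 peak on day 5, and LMNB1 and LMNB2 end below their day 0 level.

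Counted by step, 2 of the 10 genes passed for day 1 against day 0, where 31.8% of all genes tested did, and both were higher (KRT8 and LMNB2). For day 3 against day 1, 5 passed, 3 higher and 2 lower, beside 37.2% of all genes. For day 5 against day 3, 3 passed, all higher, beside 16.6% of all genes. The step of day 7 against day 5 had the most calls: 8 of 10 passed, 4 higher (DES, NES, SYNM, LMNA) and 4 lower (KRT8, KRT18, LMNB1, LMNB2), beside 10.3% of all genes. When the fit held just the 6 libraries of these 2 days, 2 of the 10 passed at that step, DES and SYNM. For day 10 against day 7, 1 passed, LMNB2, which was lower, beside 7.67%. For day 14 against day 10, 3 passed, all lower (DES, KRT8, KRT18), beside 3.74%. For day 28 against day 14, 5 passed, all higher (SYNM, SYNC, KRT8, KRT18, LMNA), beside 15.7%. Of the 27 calls of single steps, 12 held with each library of the 2 days left out in turn, and those that did not are given with the genes concerned.

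**Figure D2:**
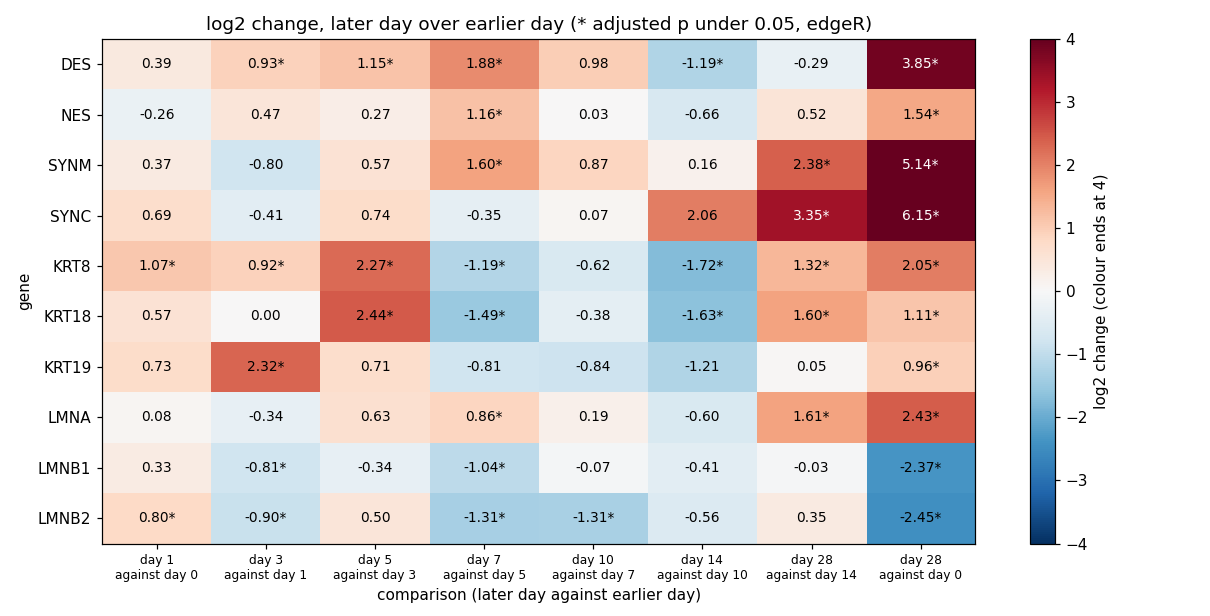
Fitted log2 change of each gene (rows) for 7 steps between consecutive days and for day 28 against day 0 (columns), later day over earlier day. Red is higher and blue lower on the later day, and a star marks an adjusted p under 0.05. The rises of SYNM and SYNC stand in the step of day 28 against day 14, whereas KRT8 and KRT18 rise on day 5, are lower at the steps to days 7, 10 and 14 and rise again on day 28.

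DES encodes desmin, the main intermediate filament protein of mature muscle. Its highest mean was on day 10. DES averaged 2.00 ± 0.396 CPM on day 0, 2.68 ± 0.830 on day 1, 5.06 ± 0.954 on day 3, 11.4 ± 3.97 on day 5, 41.1 ± 5.01 on day 7, 81.2 ± 19.6 on day 10, 35.4 ± 6.70 on day 14 and 28.9 ± 11.2 on day 28 (SD, n = 3, and 2 on day 10). The libraries of day 7 had 38.8, 37.7 and 46.9 CPM, against 11.9, 7.25 and 15.1 CPM on day 5, with no overlap (log2 change 1.88 with SE 0.31, adjusted p = 0.000171). This was the only DES step whose call held without each library in turn.

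The rises of DES on day 3 against day 1 (log2 change 0.93 with SE 0.33, adjusted p = 0.0306) and on day 5 against day 3 (1.15 with SE 0.32, adjusted p = 0.0131) passed with all libraries. The rise on day 3 did not pass without day 1 replicate 2 (adjusted p = 0.0990) or day 3 replicate 2 (0.0683), nor that on day 5 without day 3 replicate 1 (0.0706) or day 5 replicate 3 (0.0636), nor in a fit of days 3 and 5 alone (0.147). On day 10 DES stood at 95.1 and 67.3 CPM, above all day 7 libraries, but the step did not pass (log2 change 0.98 with SE 0.32, adjusted p = 0.0621). It passed after trends with GC content and length were taken out (log2 change 1.40, adjusted p = 0.000161), with DESeq2 (adjusted p = 0.0495) and with no low-count filter (0.0429).

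After day 10 the DES level was lower in every library. Day 14 libraries had 43.1, 32.6 and 30.7 CPM, all below those of day 10 (log2 change -1.19 with SE 0.32, adjusted p = 0.0366). That call passed only without day 14 replicate 1 among the 5 fits that left out a library, and the adjusted p was 0.186 and 0.0676 when replicates 1 and 2 of day 10 were left out, and 0.0720 and 0.113 for replicates 2 and 3 of day 14. Day 28 libraries had 35.0, 35.9 and 16.0 CPM, overlapping with day 14 (log2 change -0.29 with SE 0.29, adjusted p = 0.581). Replicate 3 of day 28 was the lowest of the 3, and the rise over day 0 was 14.4-fold with it (log2 change 3.85 with SE 0.34, adjusted p = 4.54e-10). The 8 cardiomyocyte markers summed to 40003 CPM in that library and to 52172 and 52924 CPM in the other replicates of day 28. The part of that difference in the DES level was not tested.

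SYNM encodes synemin, a large filament protein that co-assembles with desmin or vimentin and binds linkers of the cytoskeleton. It rose in 2 stages, on day 7 and on day 28. SYNM averaged 2.89 ± 0.164 CPM on day 0, 3.69 ± 1.32 on day 1, 2.12 ± 0.774 on day 3, 2.96 ± 1.39 on day 5, 9.68 ± 0.398 on day 7, 17.6 ± 1.90 on day 10, 19.7 ± 4.32 on day 14 and 102 ± 21.9 on day 28. Day 7 libraries had 9.81, 10.0 and 9.23 CPM, against 3.12, 4.25 and 1.49 CPM on day 5 (log2 change 1.60 with SE 0.33, adjusted p = 0.00159). The day 28 libraries had 102, 80.5 and 124 CPM, against 21.6, 22.8 and 14.8 CPM on day 14, a 5.20-fold rise (log2 change 2.38 with SE 0.29, adjusted p = 1.58e-06). No libraries overlapped at either step, and both calls held without each library. The step of day 10 over day 7, with 19.0 and 16.3 CPM on day 10, did not pass (log2 change 0.87, adjusted p = 0.104), though it did with GC and length trends removed (0.96, adjusted p = 0.0395). Over day 0 the day 28 level was 35.3-fold higher (log2 change 5.14 with SE 0.33, adjusted p = 1.43e-12).

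SYNC encodes syncoilin, an atypical filament protein that binds desmin and alpha-dystrobrevin. It was close to the detection limit until day 10 and rose on day 28. Its 3 libraries of day 0 held 3, 2 and 1 counts, and through day 10 no library held more than 4 counts. Day 14 libraries held 5, 4 and 11 counts (0.564, 0.477 and 1.39 CPM), and the step over day 10 did not pass (log2 change 2.06 with SE 0.88, adjusted p = 0.197). Day 28 libraries held 99, 131 and 101 counts (7.32, 10.1 and 7.28 CPM). The rise of day 28 over day 14 was 10.2-fold (log2 change 3.35 with SE 0.46, adjusted p = 6.95e-06), with a log2 change of 4.0 without day 14 replicate 3. The rise over day 0 was 71.2-fold (log2 change 6.15 with SE 0.54, adjusted p = 3.60e-10) and rests on 6 counts on day 0.

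Of the SYNC exon bases, 58.0% overlap the oppositely oriented gene RBBP4, which had 98494 counts over all libraries where SYNC had 384. The library kit marks strand, but the strand setting of the counting is not stated, so the split of reads between the 2 genes is uncertain. RBBP4 itself averaged 259 ± 24.3 CPM on day 28 and 272 ± 13.4 CPM on day 14 (log2 change -0.07, adjusted p = 0.912), a step at which SYNC rose. SYNM overlaps the antisense genes SYNM-AS1 and SYNM-AS2, which held 105 and 55 counts where SYNM held 5696.

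NES encodes nestin, a filament protein of progenitor cells that co-assembles with vimentin or desmin. It was abundant from the start and rose on day 7. NES averaged 321 ± 9.83 CPM on day 0, 269 ± 54.2 on day 1, 373 ± 52.0 on day 3, 450.4 ± 104 on day 5, 1007 ± 65.3 on day 7, 1028 ± 31.5 on day 10, 652 ± 67.3 on day 14 and 935 ± 73.0 on day 28. Day 7 libraries had 932, 1041 and 1048 CPM, against 495, 331 and 525 CPM on day 5, with no overlap (log2 change 1.16 with SE 0.22, adjusted p = 0.000626). The call held without each library, though not in a fit of those 2 days alone (adjusted p = 0.0729). Day 14 libraries, at 642, 724 and 590 CPM, lay below both of day 10 and below all of day 28, but neither step passed (adjusted p = 0.124 and 0.106), though both did with DESeq2 (0.0434 and 0.0429). The step of day 3 over day 1 did not pass either (log2 change 0.47, adjusted p = 0.0832), but passed when day 1 replicate 3 (log2 change 0.68, adjusted p = 0.0332) or day 3 replicate 1 (0.64, adjusted p = 0.0387) was left out. The day 28 level was 2.91-fold that of day 0 (log2 change 1.54 with SE 0.22, adjusted p = 1.19e-06).

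Vimentin, the mesenchymal filament protein and partner of nestin and synemin, followed another course. VIM averaged 79.2 ± 1.87 CPM on day 0, 1699 ± 221 on day 5 and 459 ± 21.6 on day 28, and it rose at each of the steps to days 1, 3 and 5 and fell at those to days 7 and 14. On day 7, where DES, NES and SYNM rose, VIM libraries had 851, 733 and 816 CPM, against 1906, 1467 and 1723 CPM on day 5 (log2 change -1.09 with SE 0.22, adjusted p = 0.00157). Per kilobase of exon, NES was at 3.77 ± 0.0267 times the level of VIM on day 0, 0.245 ± 0.0367 times on day 5 and 1.89 ± 0.114 times on day 28. With the length of the longest transcript these NES ratios were 1.94 ± 0.0138, 0.126 ± 0.0189 and 0.976 ± 0.0587, so the course was the same and the level relative to 1 on day 28 depends on the length. DES per kilobase was at 0.0525 ± 0.0116 times VIM on day 0, 0.0138 ± 0.00407 times on day 5, 0.238 ± 0.0626 times on day 10 and 0.133 ± 0.0552 times on day 28, and its level was under that of VIM in every library with either length.

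Markers of other cell types that carry these filaments also moved. The 4 smooth muscle markers, from a tissue that expresses desmin and synemin, summed to 462 ± 194 CPM on day 5, 1172 ± 60.5 on day 7, 1184 ± 161 on day 10, 309 ± 115 on day 14 and 2472 ± 273 on day 28. Of these, 2 rose for day 7 against day 5, 2 fell for day 14 against day 10, and all 4 rose for day 28 against day 14. The 6 fibroblast and stroma markers, from cells that express vimentin, summed to 2268 ± 752 CPM on day 5, 592 ± 136 on day 14 and 3075 ± 223 on day 28, and 4 of 6 rose and 1 fell for day 28 against day 14. No smooth muscle marker was at 0 counts on any day, and DCN and LUM of the fibroblast list were at 0 on day 1. The 4 endothelial markers summed to 287 ± 184 CPM on day 5, 476 ± 24.9 on day 7 and 47.1 ± 6.53 on day 28. For day 7 against day 5, 2 of them rose and 0 fell, and 1 was at 0 counts in day 5 replicate 3. For day 28 against day 14, 1 rose and 3 fell. The part of these cell types in the rises of DES, NES and SYNM on day 7 was not tested. Nor was their part in the fall of DES on day 14 and the rises of SYNM and SYNC on day 28.

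KRT8 encodes the type II and KRT18 the type I keratin that pair in simple epithelia, and KRT19 a further type I keratin of such epithelia. All 3 had their highest mean on day 5, in cultures labelled cardiac progenitors. KRT8 averaged 339 ± 12.4 CPM on day 0, 712 ± 153 on day 1, 1342 ± 380.1 on day 3, 6485 ± 3567 on day 5, 2848 ± 538 on day 7, 1851 ± 465 on day 10, 560.4 ± 218 on day 14 and 1403 ± 144 on day 28. On day 5 its libraries had 5626, 3426 and 10403 CPM, against 944, 1701 and 1383 CPM on day 3, a 4.83-fold rise with no overlap (log2 change 2.27 with SE 0.33, adjusted p = 1.34e-05). KRT8 was then the gene of rank 6, 7 and 2 by counts in the 3 libraries of day 5, where its rank on day 0 lay between 454 and 489.

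KRT18 rose at the same step. It averaged 391 ± 12.1 CPM on day 0, 581 ± 114 on day 1, 582 ± 159 on day 3, 3155 ± 1806 on day 5, 1121 ± 205 on day 7, 859 ± 231 on day 10, 278 ± 152 on day 14 and 843 ± 113 on day 28. Day 5 libraries had 2691, 1626 and 5148 CPM, against 408, 718 and 621 CPM on day 3, with no overlap (log2 change 2.44 with SE 0.36, adjusted p = 1.75e-05). The day 5 calls of KRT8 and KRT18 held without each library. In both genes the lowest library of day 5 was replicate 2 and the highest replicate 3.

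KRT19 rose a step earlier. It averaged 113 ± 6.74 CPM on day 0, 187 ± 39.5 on day 1, 932 ± 297 on day 3, 1528 ± 809 on day 5, 870.5 ± 108 on day 7, 487 ± 125 on day 10, 210.4 ± 63.4 on day 14 and 218 ± 49.8 on day 28. Day 3 libraries had 599, 1031 and 1167 CPM, against 190, 146 and 225 CPM on day 1, a 4.98-fold rise with no overlap (log2 change 2.32 with SE 0.34, adjusted p = 7.52e-06), which held without each library. KRT18 over the same step had a log2 change of 0.00 (SE 0.35). On day 5 the KRT19 libraries, at 1506, 731 and 2348 CPM, overlapped with those of day 3 and the step did not pass (adjusted p = 0.144), though it did without day 5 replicate 2 (log2 change 0.91, adjusted p = 0.0128). None of the later KRT19 steps passed in the main fit. Its adjusted p on day 14 against day 10 was 0.0550 (log2 change -1.21), with no overlap. That fall passed without day 14 replicate 2 (0.0271), with DESeq2 (0.0267), with no low-count filter (0.00234), with GC and length trends removed (0.0104) and in a fit of those 2 days alone (0.0265). Without day 10 replicate 1 its log2 change was -1.53. The lower KRT19 level on day 7 passed without day 5 replicate 2 (log2 change -1.03, adjusted p = 0.0111) and with GC and length trends removed (-0.70, adjusted p = 0.00519). That on day 10 passed in a fit of days 7 and 10 alone (-0.86, adjusted p = 0.00653).

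KRT8 passed on day 1. Its libraries had 746, 544 and 845 CPM on day 1, against 328, 338 and 352 CPM on day 0 (log2 change 1.07 with SE 0.32, adjusted p = 0.0146), a call that ended without day 1 replicate 3 (adjusted p = 0.0607). The further rise on day 3 (log2 change 0.92 with SE 0.32, adjusted p = 0.0271) did not pass without day 1 replicate 2 (adjusted p = 0.0698) or day 3 replicate 2 (0.0745). On day 1 the KRT19 step passed without day 1 replicate 2 (log2 change 0.92, adjusted p = 0.0411), against 0.0851 with all libraries (log2 change 0.73). The KRT18 step did not pass with all libraries (log2 change 0.57, adjusted p = 0.207). Both passed in a fit of days 0 and 1 alone, KRT18 with an adjusted p of 0.0205 and KRT19 with 0.00912, and in neither gene did the libraries of these days overlap.

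After day 5 the mean of each keratin was lower on every further day until day 14. On day 7 KRT8 fell (log2 change -1.19 with SE 0.32, adjusted p = 0.0168) and so did KRT18 (-1.49 with SE 0.35, adjusted p = 0.00607). The fall of KRT8 did not pass without day 5 replicate 3 (log2 change -0.67, adjusted p = 0.116), day 7 replicate 1 (0.0615) or day 7 replicate 2 (0.136), and that of KRT18 without day 7 replicate 2 (0.0630). On day 14 the KRT8 libraries had 432, 812 and 438 CPM, against 1522 and 2179 CPM on day 10 (log2 change -1.72 with SE 0.35, adjusted p = 0.00648), and the call ended without day 10 replicate 2 (0.0804). KRT18 had 172, 452 and 209 CPM on day 14, against 696 and 1023 CPM on day 10 (log2 change -1.63 with SE 0.38, adjusted p = 0.0168). The KRT18 fall did not pass without day 10 replicate 2 (adjusted p = 0.180), day 14 replicate 1 (0.0719) or day 14 replicate 3 (0.0709). Replicate 2 was the highest library of day 14 for all 3 keratins, and 7 endoderm markers summed to 2254 CPM in it, against 474 and 2993 CPM in replicates 1 and 3. Sums of 5 epithelial markers were 138, 270 and 195 CPM in replicates 1, 2 and 3, highest in replicate 2. So were the smooth muscle sums (245, 442 and 241 CPM) and the fibroblast and stroma sums (519, 749 and 508 CPM). The mesothelial and epicardial sums (59.6, 65.7 and 70.9 CPM) were highest in replicate 3. The part of these cell types was not tested.

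On day 28 KRT8 and KRT18 rose again. KRT8 libraries had 1237, 1484 and 1488 CPM on day 28, against 432, 812 and 438 CPM on day 14 (log2 change 1.32 with SE 0.32, adjusted p = 0.00517). KRT18 libraries had 737, 831 and 961 CPM on day 28, against 172, 452 and 209 CPM on day 14 (log2 change 1.60 with SE 0.35, adjusted p = 0.00214). KRT19, at 220.3, 267 and 168 CPM against 165, 283 and 183 CPM on day 14, did not pass (log2 change 0.05 with SE 0.32, adjusted p = 0.946). The 2 calls held without each library. Over day 0, day 28 levels were 4.13-fold for KRT8 (adjusted p = 8.10e-06), 2.16-fold for KRT18 (0.00804) and 1.94-fold for KRT19 (0.0136).

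The 3 keratin genes together took 0.0793% to 0.0857% of counts in day 0 libraries, 0.607% to 1.66% on day 5, 0.0788% to 0.157% on day 14 and 0.203% to 0.232% on day 28. Their proportions were not fixed. Per kilobase of exon, KRT8 stood at 0.388 ± 0.0115 times KRT18 on day 0, 0.545 ± 0.0143 on day 1, 1.03 ± 0.0319 on day 3, 0.925 ± 0.0204 on day 5, 1.13 ± 0.00994 on day 7, 0.963 ± 0.0177 on day 10, 0.951 ± 0.160 on day 14 and 0.745 ± 0.0531 on day 28. No library of days 3 to 14 overlapped with day 0 or day 1. The course of this ratio does not depend on the length used, but its position relative to 1 does: with the length of the longest transcript it was 0.634 ± 0.0188 on day 0, 1.68 ± 0.0521 on day 3 and 1.22 ± 0.0868 on day 28. KRT19 stood at 0.379 ± 0.0118 times KRT18 on day 0, 2.10 ± 0.326 times on day 3, 0.642 ± 0.0810 times on day 5 and 0.348 ± 0.104 times on day 28, and its lowest library on day 3, at 1.89, was above the highest of every other day, which was 1.26 on day 14.

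**Figure D3:**
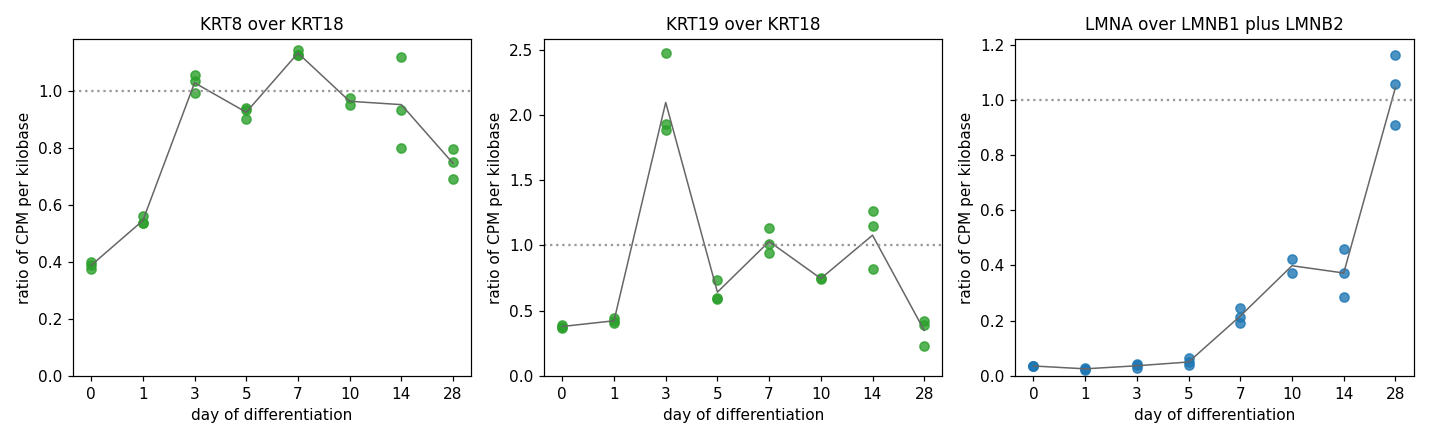
Ratio of levels per kilobase of exon in each library (points) by day, with lines through the day means, for KRT8 over KRT18, KRT19 over KRT18, and LMNA over the sum of LMNB1 and LMNB2. The dotted line marks a ratio of 1, whose crossing depends on the exon length used. The KRT19 ratio peaks on day 3 and the LMNA ratio climbs after day 5 to 1.04 ± 0.127 on day 28.

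KRT8 and KRT18 share 525 exon bases in opposite orientation, 17.1% of those of KRT18 and 7.63% of those of KRT8, and the split of those reads depends on the counting's strand setting. Both genes also have many processed pseudogenes, 51 of KRT8 and 67 of KRT18 in the table. Counts assigned to these pseudogenes came to 1.88% of the counts of KRT8 and 1.22% of those of KRT18 over all libraries, and at most to 8.94% and 8.60% in a library.

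Over the days, the keratin peak did not follow the epithelial marker list. The 5 epithelial markers (EPCAM, CDH1, CLDN6, CLDN4, ESRP1) summed to 1182 ± 15.1 CPM on day 0, 390.2 ± 138 on day 5, 201 ± 66.2 on day 14 and 159 ± 21.2 on day 28, with none at 0 counts on any day. For day 5 against day 3, 1 of the 5 rose and 2 fell. The 8 mesothelial and epicardial markers, from cells that express these keratins, summed to 19.4 ± 8.01 CPM on day 3, 146 ± 47.1 on day 5, 95.8 ± 12.7 on day 7, 65.4 ± 5.67 on day 14 and 58.5 ± 9.16 on day 28. Of these, 6 rose for day 5 against day 3 and 4 fell for day 7 against day 5. WT1, ITLN1 and TCF21 were at 0 counts on day 0. The 7 endoderm markers, also from keratin-bearing cells, summed to 195 ± 63.0 CPM on day 3, 419 ± 210 on day 5, 1907 ± 1295 on day 14 and 173 ± 71.7 on day 28, with 5 rising and 1 falling for day 5 against day 3 and 5 falling for day 28 against day 14, and with SOX17 and TTR at 0 counts on day 1. Among day 5 libraries, the mesothelial markers summed to 114, 199.95 and 123 CPM and the endoderm markers to 538, 177 and 541 CPM in replicates 1, 2 and 3. Replicate 2, where the keratins were lowest, was thus highest for the mesothelial and lowest for the endoderm markers. The epithelial markers, at 476, 231 and 464 CPM in replicates 1, 2 and 3, were lowest in replicate 2 as well and highest in replicate 1. Replicates 2 and 3 had GC slopes of -0.598 and 0.504. The 8 cardiomyocyte markers, all of which rose for day 5 against day 3, summed to 3846, 2765 and 6814 CPM in replicates 1, 2 and 3. They were thus lowest in replicate 2 and highest in replicate 3, as the keratins were. The part of any of these cell types in the keratin levels was not tested.

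LMNA, the gene of the A-type lamins, rose on day 7 and again on day 28. It averaged 44.9 ± 2.82 CPM on day 0, 47.5 ± 10.1 on day 1, 37.5 ± 9.06 on day 3, 58.5 ± 24.8 on day 5, 106 ± 14.5 on day 7, 121 ± 17.6 on day 10, 79.7 ± 11.1 on day 14 and 243 ± 23.6 on day 28. Day 28 libraries had 229.8, 228 and 269.8 CPM, against 86.4, 85.8 and 66.9 CPM on day 14, a 3.04-fold rise with no overlap (log2 change 1.61 with SE 0.27, adjusted p = 9.87e-05) that held without each library. The earlier rise, with 96.5, 98.3 and 122 CPM on day 7 against 53.6, 36.6 and 85.4 CPM on day 5 (log2 change 0.86 with SE 0.27, adjusted p = 0.0365), was less firm. It did not pass without day 5 replicate 1 (adjusted p = 0.115), day 7 replicate 2 (0.0509) or day 7 replicate 3 (0.119). On day 5 the rise over day 3 passed without day 5 replicate 2 (log2 change 0.75, adjusted p = 0.0160) and not with all libraries (0.110). Over day 0 LMNA was 5.40-fold higher on day 28 (log2 change 2.43 with SE 0.27, adjusted p = 3.21e-08). Lamin A and lamin C are not separated in these counts.

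LMNB1, the gene of lamin B1, fell over the course. It averaged 307 ± 13 CPM on day 0, 386 ± 53.2 on day 1, 220.4 ± 33.7 on day 3, 174 ± 83.2 on day 5, 84.9 ± 3.01 on day 7, 81.1 ± 5.75 on day 10, 60.9 ± 13.8 on day 14 and 59.4 ± 14.5 on day 28. Day 28 libraries had 48.9, 53.3 and 76.0 CPM, against 292, 314 and 315 CPM on day 0 (log2 change -2.37 with SE 0.29, adjusted p = 1.52e-07), a level 5.17-fold lower than on day 0. Its single steps were less firm. The fall on day 3 (log2 change -0.81 with SE 0.28, adjusted p = 0.0257) passed only without day 3 replicate 1 among the 6 fits that left out a library. Its adjusted p was 0.0842, 0.115 and 0.0602 without replicates 1, 2 and 3 of day 1, and 0.144 and 0.0837 without replicates 2 and 3 of day 3. The fall on day 7 (log2 change -1.04 with SE 0.28, adjusted p = 0.0173) had overlapping libraries, with 85.9 CPM in day 5 replicate 3 and 81.9 to 87.9 CPM on day 7. Among the fits that left out a library, it passed only without day 5 replicate 3. There the adjusted p was 0.0541 without day 5 replicate 1, 0.127 without day 5 replicate 2 (log2 change -0.58), and 0.0694, 0.0914 and 0.0945 when replicates 1, 2 and 3 of day 7 were left out. With library totals in place of TMM neither fall passed (adjusted p = 0.125 for day 3 and 0.0545 for day 7). On day 5, LMNB1 fell below day 3 without day 5 replicate 2 (log2 change -0.82, adjusted p = 0.0210), against 0.469 with all libraries.

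LMNB2, the gene of lamin B2, ended as low. It passed as lower on days 3 and 7, as LMNB1 did, and also as lower on day 10 and as higher on day 1. It averaged 373 ± 18.6 CPM on day 0, 647 ± 154 on day 1, 347 ± 72.2 on day 3, 490.0 ± 253 on day 5, 197 ± 14.5 on day 7, 79.3 ± 20.2 on day 10, 53.7 ± 3.35 on day 14 and 68.4 ± 13.4 on day 28. The fall on day 7, with 200.5, 181 and 209 CPM against 450.0, 259 and 761 CPM on day 5, had no overlap and held without each library (log2 change -1.31 with SE 0.29, adjusted p = 0.00350). It did not pass in a fit of those 2 days alone (adjusted p = 0.0950). The fall on day 10 (log2 change -1.31 with SE 0.34, adjusted p = 0.0159) ended without day 10 replicate 1 (adjusted p = 0.234). Day 28 libraries had 58.2, 63.4 and 83.6 CPM, against 371, 355 and 392 CPM on day 0 (log2 change -2.45 with SE 0.30, adjusted p = 1.38e-07), a level 5.45-fold lower than on day 0.

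Before that, LMNB2 rose on day 1, with 684, 478 and 779 CPM against 371, 355 and 392 CPM on day 0 (log2 change 0.80 with SE 0.29, adjusted p = 0.0370), and fell back on day 3 (log2 change -0.90 with SE 0.29, adjusted p = 0.0163). The day 1 rise passed only without day 1 replicate 2 among 6 such fits. Its adjusted p was 0.0885, 0.0889 and 0.0582 without replicates 1, 2 and 3 of day 0, 0.0818 without day 1 replicate 1 and 0.139 without day 1 replicate 3, 0.0613 with library totals, and 0.0511 with GC and length trends removed (log2 change 0.38). The day 3 fall did not pass without day 1 replicate 1 (0.0648), day 1 replicate 3 (0.115) or day 3 replicate 1 (0.106), nor with library totals in place of TMM (0.0611). On day 5 a rise of LMNB2 over day 3 passed without day 5 replicate 2 (log2 change 0.66, adjusted p = 0.0337), against 0.269 with all libraries.

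Because LMNA and the B-type genes moved in opposite directions, their ratio shifted further than any of them. LMNA per kilobase stood at 0.0359 ± 0.00144 times the sum of LMNB1 and LMNB2 on day 0, 0.0256 ± 0.00401 on day 1, 0.0367 ± 0.00786 on day 3, 0.0504 ± 0.0127 on day 5, 0.217 ± 0.0263 on day 7, 0.399 ± 0.0350 on day 10, 0.373 ± 0.0877 on day 14 and 1.04 ± 0.127 on day 28. Libraries of day 28 had ratios of 0.910 to 1.16, and the lowest was above the highest library of day 14, at 0.461. With the length of the longest transcript the ratio was 0.0736 ± 0.00285 on day 0 and 2.14 ± 0.259 on day 28, so the shift was seen with both lengths, and the level relative to 1 depends on the length.

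Proliferation markers, like the B-type lamin genes, were lower by day 28. The 8 markers (MKI67, TOP2A, CCNB1, CDK1, BUB1, AURKB, PLK1, CCNA2) summed to 2022 ± 111 CPM on day 0, 1042 ± 143 on day 1, 1270.4 ± 443 on day 3, 1207 ± 604 on day 5, 548 ± 30.8 on day 7, 464 ± 122 on day 10, 279 ± 121 on day 14 and 347 ± 149 on day 28. All 8 fell for day 28 against day 0 and 4 of 8 for day 7 against day 5, and none was at 0 counts on any day. On day 1 their summed level was lower than on day 0 and 4 of 8 fell, where LMNB2 rose. For day 3 against day 1, where LMNB1 and LMNB2 fell, 3 of 8 rose and 0 fell, with a median log2 change of -0.23. In day 28 replicate 3 the sum was 512 CPM, against 303 and 225 CPM in the other replicates of that day, and LMNB1 and LMNB2 were highest in that library too. Among day 5 libraries the sum was 847, 1905 and 869 CPM in replicates 1, 2 and 3. LMNB1 was highest but LMNB2 lowest in replicate 2, the library with a GC slope of -0.598. Among day 14 libraries the sum was 140, 339 and 358 CPM, and LMNB1 was lowest but LMNB2 highest in replicate 1. The part of proliferating cells in the lamin levels was not tested.

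The B-type lamin genes differed in opposite directions among the libraries of days 1, 3, 5, 10 and 14. On day 5 LMNB1 had 185, 251 and 85.9 CPM in replicates 1, 2 and 3, where LMNB2 had 450.0, 259 and 761 CPM. LMNB1 per kilobase was therefore between 0.168 and 1.44 times LMNB2 within that day. The ratio spanned 1.17 to 1.31 within day 0, 0.645 to 1.38 within day 1, 0.678 to 1.40 within day 3 and 0.581 to 0.697 within day 7. It spanned 1.22 to 1.95 within day 10 and 1.16 to 2.02 within day 14. LMNB1 was higher and LMNB2 lower in replicate 1 of day 10, and the reverse held for replicate 1 of day 14. On day 1 LMNB1 was highest and LMNB2 lowest in replicate 2, and on day 3 both held for replicate 1. On day 5, replicate 3, with LMNB1 lowest, is the library whose levels rose most with GC content, and replicate 2 the library whose levels fell with it. The longest transcripts have 51.1% GC in LMNB1, 61.1% in LMNB2, 61.0% in LMNA and 56.2% in KRT8, against a median of 47.8% over genes tested. All of these are above the median, yet in day 5 replicate 3 LMNB1 was lowest, and LMNB2, LMNA and KRT8 highest. The part of GC content in these differences between libraries was not tested. With GC content and length trends removed, all 10 genes still passed for day 28 against day 0, and the LMNB1 fall on day 3 did not pass (log2 change -0.63, adjusted p = 0.0730). NES then passed as lower on day 1 (log2 change -0.65, adjusted p = 0.00343), against 0.363 in the main fit. It also passed as higher on day 3 (0.65, adjusted p = 0.00212) and day 28 against day 14 (0.51, adjusted p = 0.0232). This setting removes trends that differ between days as well as those within a day.

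**Figure D4:**
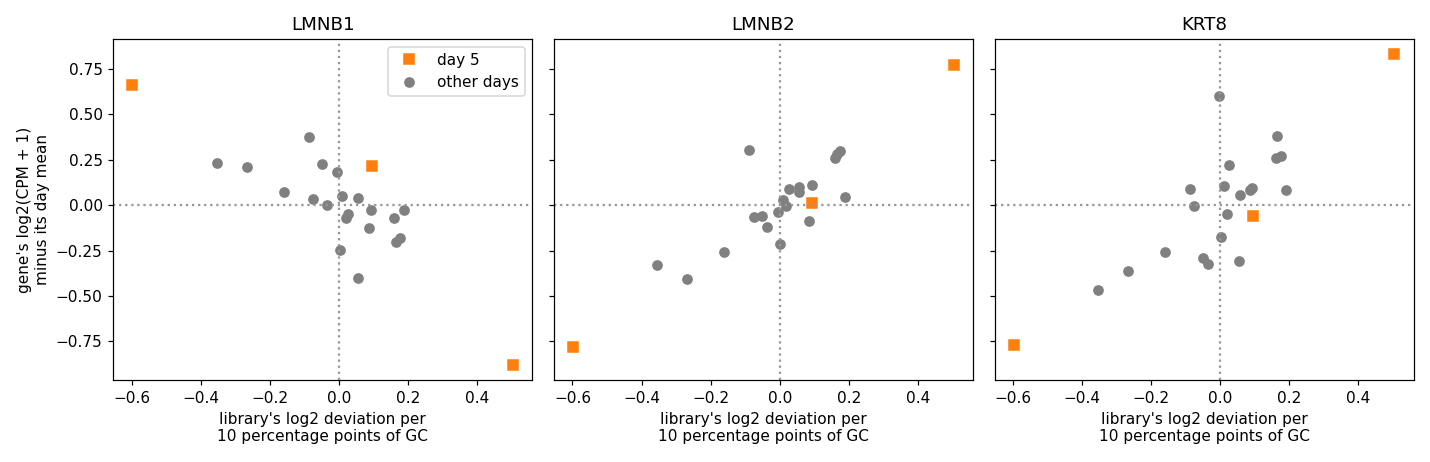
Deviation of LMNB1, LMNB2 and KRT8 from their day mean in log2(CPM + 1) (vertical axis) against the slope of each library's deviation on GC content, in log2 units per 10 percentage points (horizontal axis). Each point is 1 of the 23 libraries, and squares are those of day 5. LMNB1 is lowest, and LMNB2 and KRT8 highest, in the day 5 library with a slope of 0.504, though all these genes are above the median GC content of genes tested.

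The order of levels per kilobase of exon changed with the days. On day 0 KRT18 was highest (127 ± 3.95 CPM per kilobase), followed by LMNB1 (84.5 ± 3.57), LMNB2 (69.1 ± 3.46), NES (57.7 ± 1.77), KRT8 (49.3 ± 1.81) and KRT19 (48.2 ± 2.89), of which the last 2 did not differ beyond their spread. LMNA (5.52 ± 0.347), DES (0.802 ± 0.159), SYNM (0.372 ± 0.0211) and SYNC (0.0283 ± 0.0145) followed. On day 28 the order was KRT18 (275 ± 36.8), KRT8 (204 ± 20.9), NES (168 ± 13.1), KRT19 (93.5 ± 21.3) and LMNA (29.8 ± 2.90). LMNB1 (16.4 ± 4.0), SYNM (13.2 ± 2.82), LMNB2 (12.7 ± 2.48) and DES (11.6 ± 4.50) had overlapping ranges, and SYNC was last (2.21 ± 0.438). Within each library of day 28, however, LMNB1 was 1.25 to 1.35 times LMNB2. The order depends on the length used. With that of the longest transcript, KRT8 was second on day 0 (119 CPM per kilobase), after KRT18 (187) and before LMNB1 (88.3), KRT19 (81.1), LMNB2 (80.4) and NES (57.7). It came before KRT18 on day 28 (490.0 and 404 CPM per kilobase), since the exon union of KRT8 is 6881 bases and its longest transcript 2862.

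Genes whose products bind or fold desmin and synemin were mostly higher by day 28. In a list of 12 such partners and chaperones, 10 rose and 0 fell for day 28 against day 0, where 60.5% of all genes tested passed, with a median log2 change of 5.34 against 0.09 over all genes tested. ACTN2, the alpha-actinin of the Z-disc, averaged 1739.8 ± 143 CPM on day 28 and 2.22 ± 0.327 CPM on day 0 (log2 change 9.60 with SE 0.39, adjusted p = 3.28e-16). LDB3, a Z-disc PDZ and LIM protein, averaged 1249.6 ± 77.0 CPM on day 28 and 1.06 ± 0.312 CPM on day 0 (log2 change 10.19 with SE 0.41, adjusted p = 2.52e-16). NRAP, a scaffold of myofibril assembly, had 3033 counts over the day 28 libraries and 1 count over those of day 0, or 75.6 ± 20.9 CPM on day 28. VCL (log2 change 0.17, adjusted p = 0.555) and MTM1 (-0.34, adjusted p = 0.411) were the 2 that did not pass. For day 28 against day 14, where DES did not rise, 8 of the 12 rose and 0 fell, beside 15.7% of all genes.

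Of 24 other intermediate filament genes, 12 had enough counts to be tested, and 3 rose and 4 fell for day 28 against day 0 (median log2 change -0.14), a share near the 60.5% of all genes. KRT80, an epithelial keratin, rose to 5.06 ± 1.45 CPM on day 28, against 0.104 ± 0.110 CPM on day 0 (log2 change 5.45 with SE 0.61, adjusted p = 4.58e-08). VIM rose (log2 change 2.53 with SE 0.23, adjusted p = 7.84e-10), and KRT15 passed at low levels, with 24 counts on day 28 and 7 on day 0. The neurofilament genes fell, with log2 changes of -3.07 for NEFM, -2.03 for NEFL and -1.57 for NEFH. NEFL, the light chain, averaged 6.63 ± 1.33 CPM on day 28 and 27.0 ± 2.35 CPM on day 0. INA, a neuronal filament gene, was the other gene of this list that fell.

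Among 16 desmosome and plakin genes, which anchor keratin and desmin filaments at cell junctions, 15 were tested, and 8 rose and 4 fell for day 28 against day 0 (median log2 change 1.16), beside 60.5% of all genes. PKP2, the plakophilin of the cardiac desmosome, rose to 1322 ± 74.4 CPM on day 28, against 42.2 ± 3.34 CPM on day 0 (log2 change 4.97 with SE 0.35, adjusted p = 6.07e-12). DSP, desmoplakin, which binds intermediate filaments directly, averaged 904 ± 50.4 CPM on day 28 and 121 ± 9.76 CPM on day 0 (log2 change 2.90, adjusted p = 8.94e-06). EPPK1, a keratin-binding plakin, also rose (log2 change 2.38). PKP3 (log2 change -3.65), PKP1 (-2.27) and EVPL (-2.88), which are best known from stratified epithelia, fell. On day 5, where KRT8 and KRT18 peaked, 2 of these 15 genes rose and 2 fell against day 3, beside 16.6% of all genes.

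Of 13 nuclear envelope partners of lamins, 4 rose and 4 fell for day 28 against day 0 (median log2 change 0.15), a share near the 60.5% of all genes. SYNE1, the nesprin-1 gene, whose product links the nucleus to the cytoskeleton, rose to 444 ± 101 CPM on day 28, against 6.99 ± 0.956 CPM on day 0 (log2 change 5.99 with SE 0.51, adjusted p = 1.92e-10). SYNE3 rose at low levels (log2 change 3.09), and SUN2, a SUN protein that holds nesprins in the envelope and binds lamins, rose 1.79 on the log2 scale (adjusted p = 7.12e-06). LBR, the lamin B receptor, averaged 51.8 ± 11.8 CPM on day 28 and 135 ± 12.6 CPM on day 0 (log2 change -1.38 with SE 0.43, adjusted p = 0.00796). TMPO, the gene of LAP2, fell by 1.37 and BANF1, a chromatin-binding partner of LEM proteins, by 1.00 on the log2 scale. EMD, which encodes emerin, did not pass (log2 change -0.34, adjusted p = 0.330).

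In the list of 6 lamin processing genes, 1 rose and 3 fell for day 28 against day 0 (median log2 change -0.52), a share near the 60.5% of all genes. ZMPSTE24, the protease that releases mature lamin A from its precursor, averaged 44.3 ± 12.5 CPM on day 28 and 98.0 ± 6.76 CPM on day 0 (log2 change -1.14 with SE 0.35, adjusted p = 0.00684), where LMNA rose. RCE1 (log2 change -1.86) and ICMT (-1.36), which process and methylate farnesylated proteins, fell. FNTB, the beta subunit of farnesyltransferase, rose (log2 change 0.91, adjusted p = 0.00216).

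**Figure D5:**
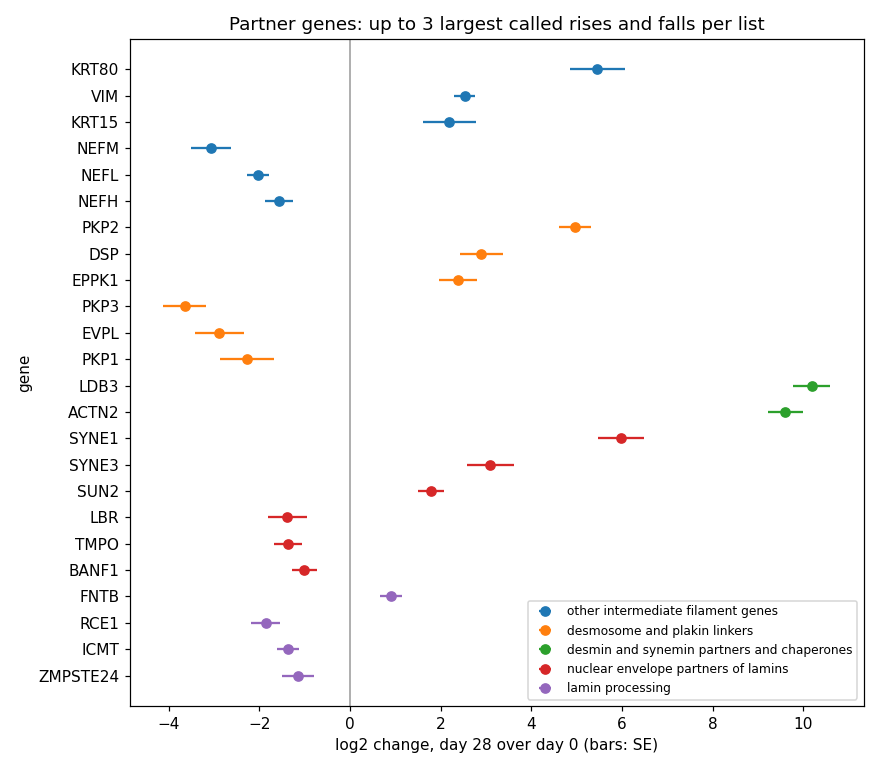
Fitted log2 change of day 28 over day 0, with SE as bars, for up to 3 called genes with the largest rise and 3 with the largest fall in each of 5 lists, coloured by list. NRAP is left out because it had 1 count on day 0. Genes of the desmin and synemin partner list lie furthest to the right, with LDB3 at 10.19, and PKP3, at -3.65, lies furthest to the left.

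The 10 genes fell into groups by their course over the 8 day means of log2(CPM + 1), given as a description with n = 8 days that share the libraries of each day. SYNM and LMNA had the highest Pearson r of any pair (0.952), followed by DES and NES (0.951), KRT8 and KRT18 (0.928) and LMNB1 and LMNB2 (0.916). The lowest were NES with LMNB1 (-0.918) and DES with LMNB1 (-0.918). KRT8 had an r of 0.00 with SYNC and 0.01 with SYNM.

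Among 10612 genes with a symbol and at least 20 CPM on their highest day, the genes most like each member by the same measure were RASSF5, FOXJ2 and MAPKBP1 for DES (r of 0.984 to 0.986), TGFB3, RGS3 and TNNI3 for NES (0.969 to 0.982), MICAL3, BANCR and SH3BGR for SYNM (0.988 to 0.991) and EYA4, BRINP3 and PHLDB2 for SYNC (0.989 to 0.995). They were ADCK5 and SGSM3 for KRT8 (0.967 to 0.972) after the pseudogene KRT8P3 (0.981), and NECTIN2 and C2orf68 for KRT18 (0.936 to 0.938), again after KRT8P3 (0.952). For KRT19 they were CASTOR3P, FIGNL2 and CHST14 (0.971 to 0.978), and for LMNA INPP5A, PPP2R5B and SLC25A23 (0.981 to 0.987). LMNB1 was closest to ABHD17C, RFC5 and URB2 (0.993 to 0.995), of which RFC5 encodes a replication factor C subunit. LMNB2 was closest to CENPO, SNRPB and TIMELESS (0.997 to 0.999), of which CENPO encodes a centromere protein.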

How the data were processed

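The authors deposited whole-number counts per gene, with a column for each library, and the values are unscaled. Trim Galore 0.65 (trimming), STAR 2.7.0 (alignment to GRCh38) and HTSeq (counting) are named per the submitters' processing notes, and GENCODE 38 as annotation in the design text. The strand setting of the counting is not given in the sources used here. Of 57521 genes, 44 pseudoautosomal Y copies with 0 counts were left out. GENCODE 44 symbols matched 56387 identifiers, all 10 members and all 131 list genes among them.

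The test was edgeR 4.0.16 (R 4.3.3, limma 3.58.1): filterByExpr with a minimum of 10 counts, TMM, and 1 robust quasi-likelihood fit of all 23 libraries with day as factor. P-values were Benjamini-Hochberg adjusted over 22245 genes, and a gene passed at an adjusted p under 0.05. The statistics were tested on simulated data. Levels are CPM on the TMM-scaled library size, and genes are compared per kilobase of exon union. Counting error is largest for SYNC, and also bears on SYNM (as few as 6 counts in a day 5 library) and DES (30 to 52 counts in day 0 libraries). Alternatives were RLE and library-total scaling, no filter and a minimum of 50 counts, DESeq2 1.42.0, a replicate block, only the 2 days compared, each library left out and, added after seeing the data, GC content and length trends removed. Those trends were fitted to each library's deviation from the mean of all 23 libraries. Differences between days that go with GC content or length were therefore removed too, whatever their source.

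Same-numbered libraries of days 0 and 1 deviated together (correlations 0.109, 0.404 and 0.212), all above the 0.1 that the rule used sets for pairing. Their GC slopes shared signs too (0.0193, -0.0750 and 0.0557 on day 0, and 0.0922, -0.268 and 0.175 on day 1). The labels do not say that a replicate number marks a shared culture, which was not tested, and the main fit is unpaired. In the other comparisons correlations lay between -0.647 and 0.395, and not all were above 0.1. The members, 5 gene lists and 10 marker lists were chosen with earlier results of these data known. Genes named are the members, VIM, up to 3 called list genes with the largest rise and fall for day 28 against day 0, and the 3 genes most like each member. VCL, MTM1, INA and EMD were named after their values were seen.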

Additional observations from a re-analysis of the deposited data

How the results depend on the processing

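No called direction of a member was reversed in any setting tried. For single members, 409 of 460 values stayed on their side of the threshold with a library left out, 41 lost their call and 10 gained one. In the other settings 593 of 634 stayed, 13 lost and 28 gained a call. All 10 calls of day 28 against day 0 held throughout. The number of members that passed at day 1 against day 0 was 1 with library totals alone, 4 with only the libraries of the 2 days, and 0 to 3 with a library left out. At day 3 against day 1 it was 2 to 5, and at day 5 against day 3 2 to 7, with a library left out. At day 7 against day 5 it was 2 with only the libraries of the 2 days and 4 to 8 with a library left out. At day 10 against day 7 it was 2 with no low-count filter, 2 with DESeq2, 5 with only the libraries of the 2 days, 4 with GC content and length trends removed, and 0 to 1 with a library left out. At day 14 against day 10 it was 5 with DESeq2, 5 with only the libraries of the 2 days, and 0 to 3 with a library left out.

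Over all genes, DESeq2 called 1314 at day 14 against day 10. With only the libraries of the 2 days, 1402 genes passed at day 5 against day 3, 755 at day 7 against day 5, 4499 at day 10 against day 7, 1861 at day 14 against day 10 and 6274 at day 28 against day 14. With GC content and length trends removed, 5013 passed at day 7 against day 5, 3490 at day 10 against day 7, 1905 at day 14 against day 10 and 6024 at day 28 against day 14. With a library left out the count was 3944 to 8397 at day 1 against day 0, 2878 to 7886 at day 5 against day 3, 1311 to 3855 at day 7 against day 5, 292 to 1005 at day 10 against day 7 and 186 to 778 at day 14 against day 10. The causes were not tested. Library totals moved the median log2 change of all genes by -0.21 to 0.23. Removal of GC content and length trends moved it by -0.21, at day 28 against day 0, to 0.02, at day 28 against day 14.

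With a replicate block, 2 members passed at day 1 against day 0 and 10 at day 28 against day 0, as without it, and the block added the fall of KRT19 at day 14 against day 10 (adjusted p = 0.0383) and changed no other member's call. Depth limits SYNC most, which had at most 4 counts in any library before day 14.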
